A study of Homo sapiens with 6 samples.

Results

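Collagen chain genes were taken as the genes whose symbol reads COL, a number, A and a number, each of which encodes 1 alpha chain of a collagen. On the array, 112 probe sets named 1 such gene and no other, and they covered 43 of the 19775 genes with a single-gene probe set. Each gene was read through its probe set with the highest mean over the 6 arrays. A gene was tested where that mean reached the low-value level of 2.64, the 40th percentile of all probe set means on the log2 scale, which 28 of the 43 collagen genes and 14428 of all genes did.

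Expression was measured in total RNA of A2058, an established human melanoma cell line, in 3 versions. Mock was the mock control, TET2WT overexpressed the wild-type construct, and TET2M overexpressed a construct that another label field calls Mut and whose change is not given. TET2 oxidises methylated cytosine in DNA. Cultures were kept for 7 days in DMEM. Glucose was high, at 4.5 g/L, or normal, at 1 g/L, and 1 Affymetrix array was hybridised per line and concentration. The labels do not give the promoter of the constructs or say whether a line is 1 clone. With 1 array per combination, the p-values rest on what the terms for line and glucose leave over. That remainder mixes the spread of single arrays with any difference in glucose response between the lines. Nothing shows that the spread of the arrays is more than technical.

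Collagens are secreted proteins in which alpha chains wind into a helix rich in glycine and proline. Fibrillar collagens build cable-like fibrils, collagen IV forms the sheet of basement membranes, and collagen VI forms beaded filaments around cells. FACIT collagens sit on fibrils, and transmembrane collagens are held in the cell membrane. In skin, collagen IV lies in the basement membrane that a melanoma crosses as it invades, and fibrillar collagen makes up most of the dermis beyond it.

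The TET2 probe set read 3.81 and 4.13 in Mock, 9.54 and 9.68 in TET2WT, and 7.57 and 7.37 in TET2M, at high and normal glucose in that order. The overexpressing lines thus matched their labels, and TET2M read lower than TET2WT, by 2.14 ± 0.14 (adjusted p = 0.00187, limma). Array medians lay between 2.96 and 3.03. Of 9 melanocyte and melanoma markers 6 reached the low-value level, whereas the pigment cell genes MLANA, TYR and TYRP1 did not. The mean of that list lay between 5.47 and 5.57 on the 6 arrays. Between TET2WT and Mock the median of the 6 was 0.14, with 4 above 0, 1 passing lower (MITF, -0.60 ± 0.11, adjusted p = 0.0433, limma) and 0 higher. Fibroblast markers averaged 3.04 to 3.30, with 7 of 8 at or above the level and FAP below it. Of the 7, LUM passed as lower in TET2WT against Mock (-1.06 ± 0.13, adjusted p = 0.0137, limma), whereas the median was -0.040 and 3 were above 0. Endothelial markers averaged 3.11 to 3.25, with CDH5 below the level. Keratinocyte markers averaged 4.35 to 5.03, lowest in TET2WT through KRT14 (-2.40 ± 0.11 against Mock, adjusted p = 4.42e-04, limma), whereas the median of the 5 was 0.010 and 3 were above 0. Blood cell markers averaged 3.20 to 3.45, with PTPRC and CD14 below the level. Of the 3 others LYZ differed from Mock by -0.77 in TET2WT (adjusted p = 0.0116, limma), and TET2M stood at -0.74 without passing (adjusted p = 0.0899, limma). CD3E and HBB were above 0 in both lines. The part of these markers in the collagen results was not tested.

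The 43 genes fell into 7 classes. Of the fibrillar genes 8 of 11 reached the low-value level, and the missing 3 included COL1A2 and COL3A1, chains of collagens I and III. Of the 6 collagen IV genes only COL4A1 and COL4A2 reached it, and COL4A3, COL4A4, COL4A5 and COL4A6 did not. The counts were 3 of 5 for collagen VI, 3 of 4 for short-chain and anchoring collagens, 7 of 10 for FACIT collagens, 3 of 3 for transmembrane collagens, and 2 of 4 for multiplexins and others. The 15 genes below the level were COL1A2, COL3A1, COL24A1, COL4A3, COL4A4, COL4A5, COL4A6, COL6A5, COL6A6, COL10A1, COL14A1, COL21A1, COL22A1, COL15A1 and COL28A1, with array values from 1.81 to 2.80. COL4A5, whose mean fell short, exceeded the level on both TET2WT arrays (2.74 and 2.80) and read 2.36 to 2.57 on the other 4. COL1A2, COL10A1, COL22A1 and COL28A1 exceeded it on 1 array each, outside TET2WT. Among the 28 tested genes, COL11A1 read below the level on 4 arrays, COL8A1, COL8A2 and COL23A1 on 2 each, and COL9A1 and COL25A1 on 1 each.

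**Figure D1:**
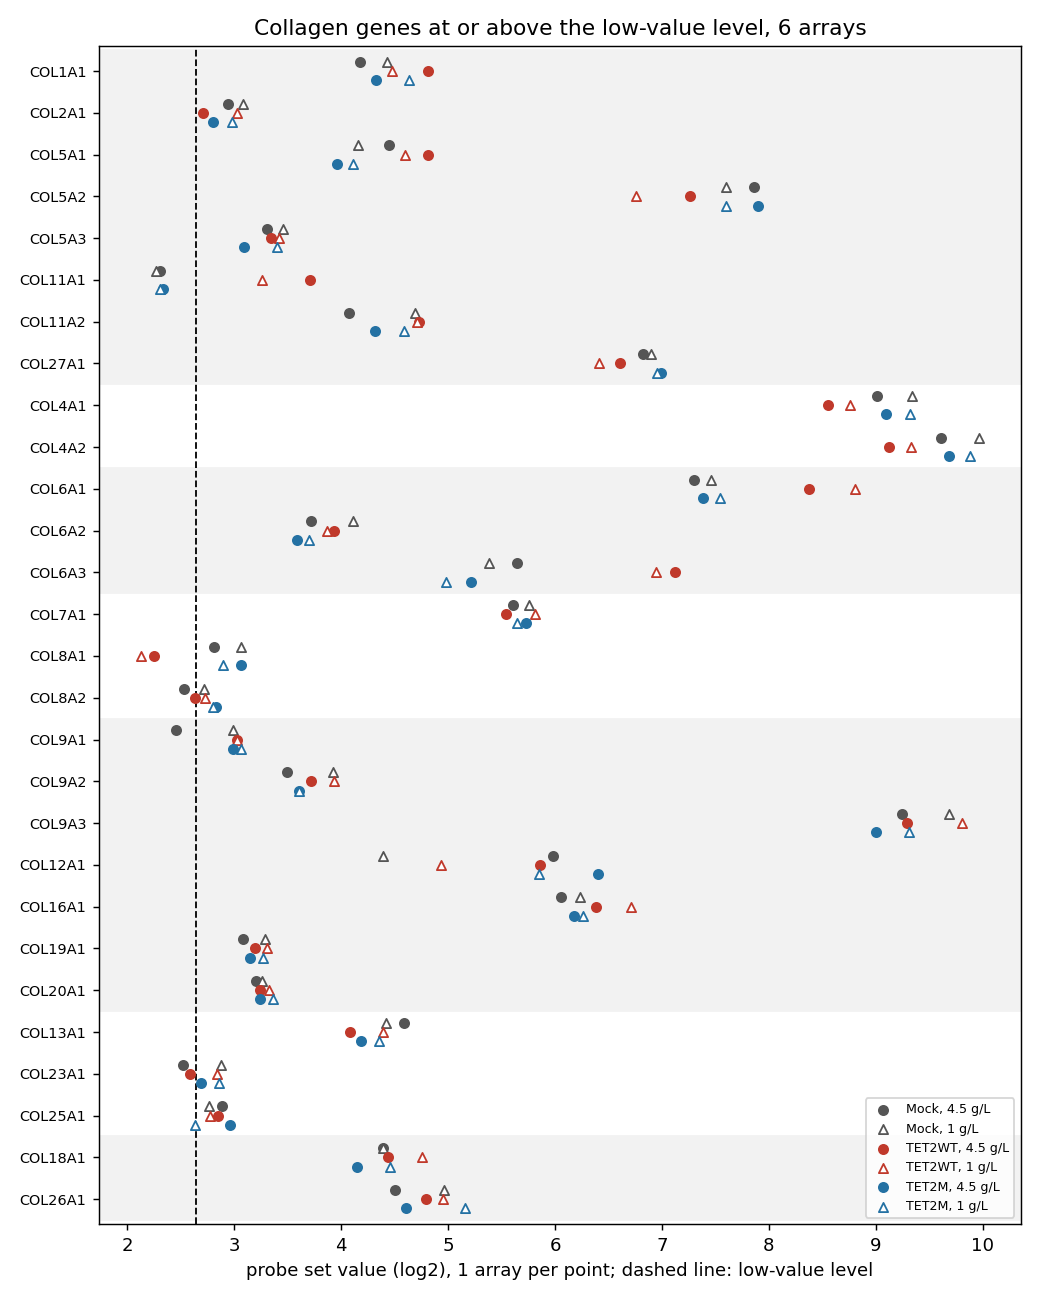
Value (log2, horizontal axis) of the 28 tested collagen genes on each of the 6 arrays, 1 row per gene, with the class as background band, the line as colour, the glucose concentration as symbol and the low-value level of 2.64 as dashed line. The TET2WT points stand to the right of the other 4 for COL6A1, COL6A3 and COL11A1 and to the left for COL4A1, COL4A2, COL5A2 and COL8A1. Genes that did not pass are separated too, with TET2WT to the right for COL5A1, COL11A2 and COL16A1 and to the left for COL27A1. How many of all genes are separated in this way was not counted. Values of different genes come from different probes and are not compared.

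TET2WT differed from Mock in 7 of the 28 tested collagen genes. The genes for 2 collagen VI chains, COL6A1 and COL6A3, and for the fibrillar chain COL11A1 rose. The genes for the collagen IV chains COL4A1 and COL4A2, the fibrillar chain COL5A2 and the network chain COL8A1 fell. This was 25% of the tested collagen genes, beside 4.21% of all genes tested, with 3 members higher (10.7%, beside 2.01%) and 4 lower (14.3%, beside 2.2%). A gene passed when limma's p, adjusted after Benjamini and Hochberg for all 14428 genes, was under 0.05. The median difference of the 28 genes was 0.060 and that of all genes -0.010, with 17 collagen genes above 0 and 11 below. COL11A1 and COL8A1 reached the low-value level only through the lines in which they were high. COL11A1, 1 of the 3, lay below the level in Mock and TET2M, so it had to be higher in TET2WT in order to be tested. COL8A1, 1 of the 4, lay above the level in Mock and TET2M and below it in TET2WT, so the filter did not require its difference. Without any filter the same 7 genes passed, of 43 (16.3%, beside 2.92% of all genes). Against TET2M, which shares the TET2WT arrays with that comparison, 7 of 28 genes passed, beside 3.3% of all genes, 3 of them higher (beside 1.86%) and 4 lower (beside 1.43%), COL11A1 and COL8A1 again among them.

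All 7 calls rest on the 2 residual degrees of freedom of the fit over 6 arrays. None of the 7 calls held in either comparison with any of the 6 arrays left out. With only the 4 arrays of the compared lines 0 collagen genes passed, beside 0.111% of all genes against Mock and 0% against TET2M. In both cases nearly all calls over all genes were lost, not those of the collagen genes alone. Without the glucose term COL4A1, COL4A2 and COL5A2 no longer passed in either. By a rule with no variance estimate, 4 genes lay at least 1.5-fold from Mock in the same direction at both concentrations (COL6A3, COL6A1, COL11A1 and COL5A2; 14.3%, beside 2.81% of all genes). Against TET2M these were 5 genes, COL8A1 being the added one (17.9%, beside 2.4%). The rule used the measured values of COL11A1 and COL8A1 below the low-value level.

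Collagen VI is a filament of the chains encoded by COL6A1, COL6A2 and COL6A3, with COL6A3 supplying the largest chain. COL6A3, on chromosome 2, read 5.64 and 5.38 in Mock, 7.12 and 6.94 in TET2WT, and 5.21 and 4.98 in TET2M at high and normal glucose. Both TET2WT arrays lay above the other 4, with no overlap, which also held for COL5A1, COL11A2 and COL16A1, genes that did not pass. How many of all genes were separated in this way was not counted. For COL11A2 the separation depended on the probe set. Its other probe set, also above the low-value level, read 3.91 and 4.08 in TET2WT and overlapped with Mock (4.03 and 4.11). It read 4.31 and 4.51 in TET2M. COL6A3 was 2.87-fold higher in TET2WT than in Mock, a log2 difference of 1.52 ± 0.087 (SE; adjusted p = 0.000951, limma), at 1.48 and 1.56 at the separate concentrations. Against TET2M it was 3.82-fold higher (adjusted p = 0.000603, limma). COL6A3 had 1 probe set, so no other reading of it was at hand.

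COL6A1, on chromosome 21, read 7.30 and 7.46 in Mock, 8.37 and 8.80 in TET2WT, and 7.38 and 7.54 in TET2M. The TET2WT arrays were again the highest, and the Mock and TET2M arrays overlapped. The gene was 2.31-fold higher in TET2WT than in Mock (SE of the log2 difference 0.11; adjusted p = 0.00521, limma) and 2.18-fold higher than in TET2M (adjusted p = 0.00699, limma). COL6A1 had 8 probe sets, and the other 7 all gave a positive mean difference from Mock, though a smaller one. Against TET2M 4 of the other 7 did. The next highest of them read 4.88 and 4.82 in Mock and 5.01 and 5.93 in TET2WT, which is 0.13 and 1.11 apart. With the mean of all its probe sets the difference of COL6A1 was 0.37 and did not pass.

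COL6A2 did not pass. It read 3.72 and 4.11 in Mock, 3.93 and 3.87 in TET2WT, and 3.59 and 3.70 in TET2M, so that Mock and TET2WT overlapped and both TET2M arrays lay below them. Its other probe set read 3.36 and 3.54, 3.58 and 4.18, and 3.22 and 3.62 in the same order, highest in TET2WT at normal glucose. The chains COL6A5 and COL6A6 lay below the low-value level on every array.

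Among the fibrillar genes COL11A1 encodes a chain of collagen XI, which sits inside thin fibrils, and COL5A2 a chain of collagen V, which helps to start fibrils. COL11A1, on chromosome 1, read 2.31 and 2.27 in Mock, 3.71 and 3.26 in TET2WT, and 2.33 and 2.31 in TET2M. Only the TET2WT arrays exceeded the low-value level, and the Mock and TET2M values lay between 2.27 and 2.33. The gene was tested because the TET2WT arrays raised its mean to 2.70, so the size is given from the level. COL11A1 in TET2WT was at least 1.79-fold higher than in Mock (adjusted p = 0.0101, limma), and than in TET2M likewise (adjusted p = 0.0110, limma). Both other COL11A1 probe sets lay below the low-value level. One read 2.49 on both TET2WT arrays against 2.02 to 2.15 on the other 4, and the other read 1.90 and 1.85 in TET2WT against 1.86 to 1.95 elsewhere.

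COL5A2, on chromosome 2, read 7.86 and 7.60 in Mock, 7.26 and 6.76 in TET2WT, and 7.90 and 7.60 in TET2M. The TET2WT arrays were the lowest, and Mock and TET2M differed by at most 0.04 at a given concentration. TET2WT was lower than Mock, at a log2 difference of -0.72 ± 0.10 (adjusted p = 0.0194, limma) and -0.74 ± 0.10 against TET2M (adjusted p = 0.0198, limma). Its second probe set gave -0.57 and -0.74 against Mock at high and normal glucose.

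COL5A1, the partner chain of COL5A2 in collagen V, had differences of the opposite sign that did not pass. It read 4.45 and 4.16 in Mock, 4.81 and 4.60 in TET2WT, and 3.96 and 4.11 in TET2M. Its difference was 0.40 ± 0.13 against Mock (adjusted p = 0.161, limma) and 0.67 ± 0.13 against TET2M (adjusted p = 0.0561, limma). COL27A1, a gene for a fibrillar collagen of cartilage, read 6.82 and 6.90, 6.61 and 6.41, and 6.99 and 6.95 in Mock, TET2WT and TET2M. It was lowest in TET2WT, by -0.35 ± 0.10 against Mock (adjusted p = 0.138, limma). COL1A1 (4.18 to 4.81 over the arrays), COL2A1 (2.71 to 3.08), COL5A3 (3.09 to 3.46) and COL11A2 (4.07 to 4.73) did not pass either. Of the 8 tested fibrillar genes 1 thus rose and 1 fell, with a median of 0.17. The COL1A1 probe set, like those of COL13A1 and COL26A1, carries the array maker's suffix for probes that may bind other transcripts.

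COL4A1 and COL4A2 encode the chains of the main collagen IV of basement membranes and lie head to head on chromosome 13. In the RefSeq promoter table (GRCh38.p14), which gives 250 bases before and 50 after a start, their starts are 127 bases apart and their windows share 226 bases. The window of COL4A2 is shown because it covers most of that of COL4A1 too, and those of COL6A3 and COL11A1 because these genes rose with TET2WT. Capitals mark CG dinucleotides, the sites at which DNA is methylated.
COL4A2 promoter window, chr13:110307034-110307333, plus strand: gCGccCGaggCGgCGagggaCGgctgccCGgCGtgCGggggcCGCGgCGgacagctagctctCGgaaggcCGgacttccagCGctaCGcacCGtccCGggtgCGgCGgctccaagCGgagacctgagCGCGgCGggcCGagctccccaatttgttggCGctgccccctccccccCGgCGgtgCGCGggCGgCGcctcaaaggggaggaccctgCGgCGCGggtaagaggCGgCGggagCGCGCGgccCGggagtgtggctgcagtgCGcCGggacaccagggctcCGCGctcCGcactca
COL6A3 promoter window, chr2:237414115-237414414, minus strand: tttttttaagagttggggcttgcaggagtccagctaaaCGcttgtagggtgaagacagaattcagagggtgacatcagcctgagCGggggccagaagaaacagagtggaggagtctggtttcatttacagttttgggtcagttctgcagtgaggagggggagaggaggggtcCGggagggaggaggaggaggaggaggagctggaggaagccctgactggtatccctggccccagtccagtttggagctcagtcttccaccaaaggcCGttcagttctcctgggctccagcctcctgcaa
COL11A1 promoter window, chr1:103108473-103108772, minus strand: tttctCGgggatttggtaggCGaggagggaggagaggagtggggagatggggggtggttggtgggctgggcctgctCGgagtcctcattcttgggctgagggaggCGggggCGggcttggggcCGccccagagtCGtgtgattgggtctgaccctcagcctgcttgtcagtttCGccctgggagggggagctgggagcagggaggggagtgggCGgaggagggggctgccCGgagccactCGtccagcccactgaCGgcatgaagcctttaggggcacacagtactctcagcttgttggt
The COL4A2 window holds 45 CG dinucleotides and the COL4A1 window also 45, that of COL11A1 12 and that of COL6A3 4. The median over 35116 such windows of all genes was 14. On either strand, GGGCGG was found once or more in 45.0% of all windows and CCAAT in 34.6%. The COL4A2 window holds 1 of each, the COL11A1 window 3 and 1, and the COL6A3 window 0 of both. Windows of 31 of the 43 collagen genes were counted, and the number of CG dinucleotides in them ranged from 1 to 46. That count does not show whether the other collagen genes, COL14A1 and COL22A1 among them, have a window. Methylation was not measured here.

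COL4A1 read 9.01 and 9.34 in Mock, 8.55 and 8.76 in TET2WT, and 9.09 and 9.32 in TET2M. COL4A2 read 9.61 and 9.96, 9.12 and 9.33, and 9.68 and 9.88 in the same order. For both genes the TET2WT arrays were the lowest, and at each concentration Mock and TET2M lay within 0.08. COL4A1 was lower in TET2WT than in Mock by a log2 difference of -0.52 ± 0.089 (adjusted p = 0.0362, limma) and than in TET2M by -0.55 ± 0.089 (adjusted p = 0.0358, limma). COL4A2 was lower by -0.56 ± 0.092 (adjusted p = 0.0316, limma) and -0.56 ± 0.092 (adjusted p = 0.0380, limma). The second probe set of COL4A1 gave -0.60 and -0.46 against Mock, and that of COL4A2 gave -0.93 and -0.62.

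Other genes of chromosome 13 moved with them. The 255 other tested genes of that chromosome had a median difference of -0.32 between TET2WT and Mock, where all genes had -0.010, and 54 passed as lower (21.2%, beside 2.2%) and 3 as higher (1.18%, beside 2.01%). Against TET2M the median was -0.29, with 44 passing as lower (17.3%, beside 1.43%) and 2 as higher. A difference at or below that of COL4A1, the smaller of the 2 falls, was found in 24.3% of these genes against Mock, beside 2.92% of all genes. Against TET2M, where COL4A1 again had the smaller fall, the shares were 19.6% and 1.86%. The part of these chromosome 13 genes in the collagen IV result was not tested.

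COL8A1 encodes a short chain of the network collagen VIII of blood vessels and the cornea, and lies on chromosome 3. It read 2.81 and 3.06 in Mock, 2.25 and 2.13 in TET2WT, and 3.06 and 2.90 in TET2M. Only the TET2WT arrays lay below the low-value level. The gene was tested because Mock and TET2M raised its mean to 2.70, so the size is again given from the level. COL8A1 in TET2WT was at least 1.23-fold lower than in Mock (adjusted p = 0.0344, limma) and at least 1.26-fold lower than in TET2M (adjusted p = 0.0338, limma). Both other COL8A1 probe sets lay below the low-value level on all arrays. COL8A2, the other collagen VIII chain (2.53 to 2.83), did not pass, nor did COL7A1, the chain of the anchoring fibrils of skin, at 5.61 and 5.76, 5.54 and 5.81, and 5.73 and 5.64.

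**Figure D2:**
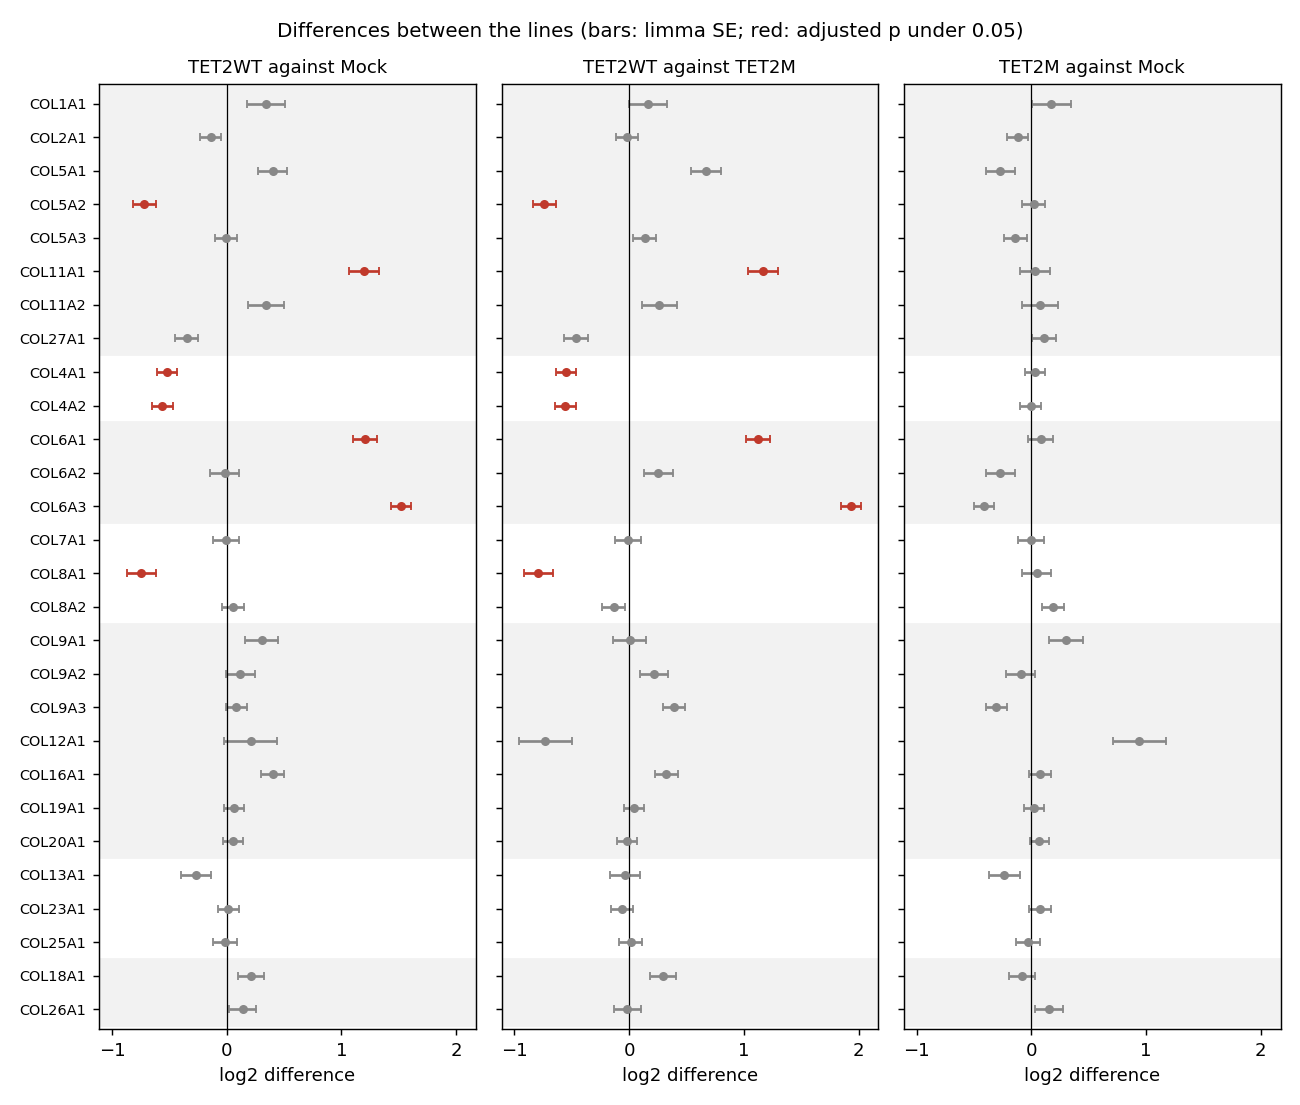
Log2 difference (horizontal axis) with its limma SE as bar for each of the 28 tested collagen genes, for TET2WT against Mock, TET2WT against TET2M and TET2M against Mock on 1 scale; red marks an adjusted p under 0.05. In the left and middle panels 7 genes are red, from COL6A3 at 1.52 and 1.94 to COL8A1 at -0.75 and -0.79, and in the right panel 0; COL11A1 and COL8A1 are drawn at their measured differences, although 1 side of each lay below the low-value level.

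**Figure D3:**
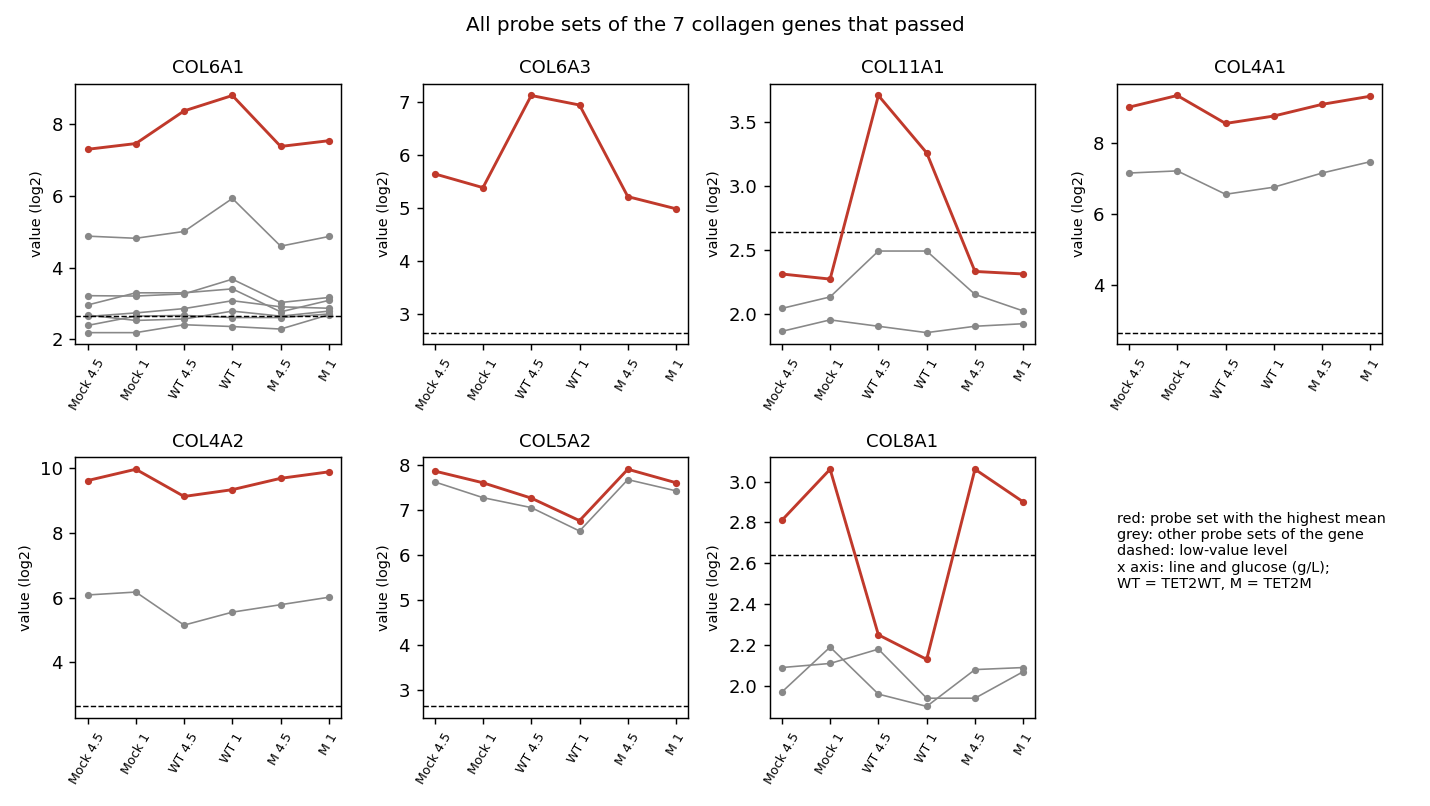
Value (log2, vertical axis) of all probe sets of the 7 collagen genes that passed, over the 6 arrays (line and glucose in g/L); each line joins the values of 1 probe set, red is the probe set with the highest mean and dashed the low-value level. For COL4A1, COL4A2 and COL5A2 the grey probe set dips in TET2WT with the red one, whereas the 7 grey COL6A1 probe sets differ less than the red one.

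None of the 7 FACIT, 3 transmembrane and 2 multiplexin and other genes passed in the TET2WT comparisons. Of the 12 genes 1, COL16A1, had an unadjusted p under 0.05 in limma against Mock (beside 20.2% of all genes). Against TET2M 4 did, COL9A3, COL12A1, COL16A1 and COL18A1 (beside 17.6%). COL16A1, a FACIT gene, read 6.06 and 6.23 in Mock, 6.38 and 6.71 in TET2WT, and 6.18 and 6.26 in TET2M. It was highest in TET2WT at each concentration, with a difference from Mock of 0.40 ± 0.10 (adjusted p = 0.0952, limma). COL9A2 (3.49 to 3.93), COL19A1 (3.08 to 3.31), COL20A1 (3.20 to 3.36), COL23A1 (2.52 to 2.88) and COL25A1 (2.63 to 2.96) stayed within narrow ranges. COL18A1, which holds the endostatin fragment, read between 4.15 and 4.76, and COL9A1 between 2.46 and 3.06.

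COL13A1, a transmembrane collagen gene, depended on the probe set. The probe set chosen for it read 4.59 and 4.42 in Mock and 4.08 and 4.39 in TET2WT and did not pass (-0.27 ± 0.13). Another, singled out after its values were seen, read 4.92 and 4.78 in Mock, 3.12 and 3.59 in TET2WT, and 4.62 and 4.47 in TET2M. There the TET2WT arrays were lower than Mock by -1.80 and -1.19, and with the mean of its probe sets COL13A1 passed against both lines.

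Between TET2M and Mock 0 of the 28 collagen genes passed, beside 0.097% of all genes, and by the 1.5-fold rule there were 0, beside 0.513%. An unadjusted p under 0.05 in limma was found for 3, COL12A1, COL6A3 and COL9A3 (10.7%, beside 9.51%). COL6A3 was lower in TET2M, by -0.43 and -0.40 at the 2 concentrations (-0.42 ± 0.087, adjusted p = 0.307, limma). COL9A3, a chain gene of the cartilage FACIT collagen IX, had a difference of -0.31 ± 0.095 (adjusted p = 0.417, limma). The difference of COL12A1 was 0.94 ± 0.23 (adjusted p = 0.371, limma), at 0.42 at high and 1.46 at normal glucose.

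Between high and normal glucose 0 of the 28 collagen genes passed, beside 0.00693% of all genes. An unadjusted p under 0.05 in limma was found for 10 of them (35.7%, beside 15.4%), 3 higher (beside 7.18%) and 7 lower (beside 8.19%) at high glucose. Of the 28 differences 20 were below 0 (71.4%, beside 55.7%), with a median of -0.15 against -0.020 for all genes. In 16 genes (57.1%, beside 37.5%) the 3 lines had the same sign, and 0 were 1.5-fold apart in every line (beside 0.215%). With an intensity trend in limma's moderated variance 5 collagen genes passed for glucose (17.9%, beside 3.97% of all genes, which rose from 1 to 573 under that setting): COL12A1 and COL5A2 higher, and COL4A1, COL4A2 and COL9A3 lower at high glucose.

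COL12A1 encodes the chain of collagen XII, a FACIT collagen on the surface of collagen I fibrils, and lies on chromosome 6. It read 5.98 and 4.39 in Mock, 5.86 and 4.93 in TET2WT, and 6.40 and 5.85 in TET2M at high and normal glucose. All 3 high-glucose arrays lay above all 3 normal-glucose arrays, although TET2M at normal glucose (5.85) came close to TET2WT at high glucose (5.86). COL25A1 was separated in the same way, and COL2A1, COL5A3, COL9A3, COL19A1, COL20A1, COL23A1 and COL26A1 in the opposite direction. How many of all genes were so separated was not counted. The COL12A1 differences were 1.59, 0.93 and 0.55, with a mean of 1.02 ± 0.19 (adjusted p = 0.145, limma). Its second probe set above the low-value level gave 0.43, 0.50 and 0.48, which are smaller and nearly equal between the lines. With the mean of all COL12A1 probe sets the glucose difference was 0.28. The response of Mock exceeded the mean of the other lines by 0.85 ± 0.23, which did not pass (adjusted p = 0.995, limma).

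COL9A3 had the largest of the negative glucose differences. It read 9.24 and 9.68 in Mock, 9.29 and 9.80 in TET2WT, and 9.00 and 9.31 in TET2M, lower at high glucose in each line (-0.42 ± 0.077, adjusted p = 0.145, limma). COL26A1 read 4.50 and 4.96, 4.79 and 4.95, and 4.61 and 5.16, also lower at high glucose in each line (-0.39 ± 0.097, adjusted p = 0.193, limma). COL4A1 (-0.26 ± 0.073) and COL4A2 (-0.25 ± 0.075) had negative differences in each line too, with adjusted p of 0.217 and 0.227 in limma. COL5A2 had a positive one, 0.35 ± 0.082 (adjusted p = 0.179, limma). The collagen VI genes split: COL6A3 stood at 0.22 ± 0.071 and COL6A1 at -0.25 ± 0.087, each with 1 sign in all 3 lines.

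**Figure D4:**
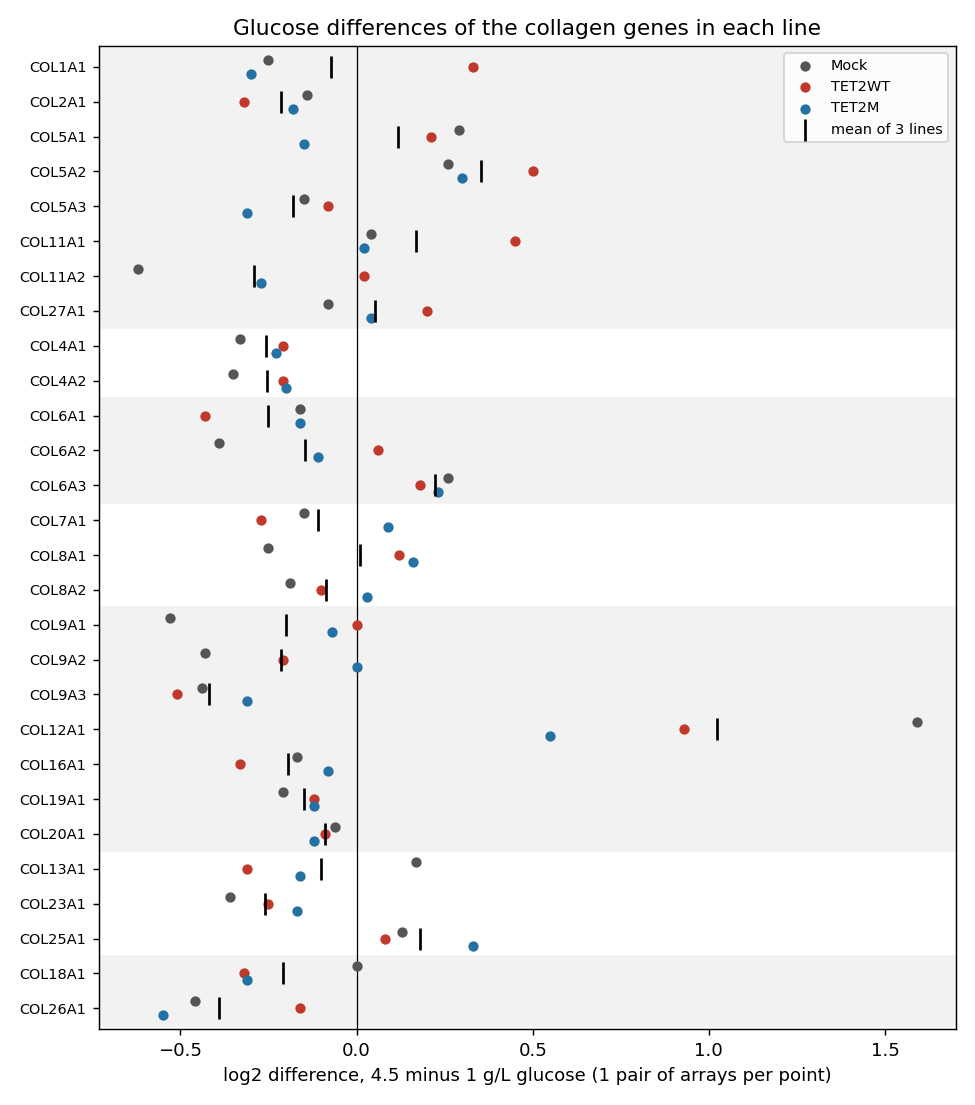
Log2 difference of high minus normal glucose (horizontal axis) for the 28 tested collagen genes, 1 point per line (Mock, TET2WT, TET2M), each from 2 arrays and without error; the vertical tick is the mean of the 3 lines. COL12A1 stands farthest to the right in all 3 lines, at 1.59, 0.93 and 0.55, and all other points lie between -0.62 and 0.50.

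The tests of whether 1 line answered glucose differently from the mean of the others gave 0 of 28 collagen genes in each of the 3 fits, beside 0% of all genes. An unadjusted p under 0.05 in limma was found for COL12A1 and COL9A1 with Mock set apart (7.14%, beside 3.39%) and for COL1A1 and COL11A1 with TET2WT set apart (7.14%, beside 9.18%). With TET2M set apart there were 0 (beside 2.09%). These fits have 1 residual degree of freedom.

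The genes that modify, fold, crosslink, bind and degrade collagen were counted by role in the same fits, in which 9 of 68 passed between TET2WT and Mock (13.2%, beside 4.21% of all genes, 2.01% higher and 2.2% lower). Of the hydroxylation and glycosylation enzymes 2 of 13 rose in TET2WT against Mock, and the median was 0.22. PLOD2, the lysyl hydroxylase that sets up stable crosslinks, read 8.30 and 8.38 in Mock, 8.95 and 8.99 in TET2WT, and 8.30 and 8.47 in TET2M. The TET2WT arrays were the highest, by 0.63 ± 0.090 against Mock (adjusted p = 0.0205, limma). P3H2, a prolyl 3-hydroxylase of collagen IV, rose by 0.66 ± 0.094 (adjusted p = 0.0214, limma). Among the prolyl 4-hydroxylase subunits P4HA1 (0.31) and P4HA2 (0.34) did not pass. Of the folding and secretion genes, with the collagen chaperone SERPINH1 at 0.23, 0 of 12 passed, and 0 of 12 had an unadjusted p under 0.05 in limma (beside 20.2% of all genes); the median was 0.037.

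Of the procollagen processing and crosslinking genes 1 of 12 rose in TET2WT against Mock (beside 2.01% of all genes), with a median of 0.098. LOXL2, a lysyl oxidase that crosslinks collagen IV, read 7.55 and 7.81 in Mock, 8.57 and 8.53 in TET2WT, and 7.62 and 7.78 in TET2M. It was higher in TET2WT by 0.87 ± 0.11 against Mock (adjusted p = 0.0137, limma) and 0.85 ± 0.11 against TET2M (adjusted p = 0.0150, limma). LOXL4, a related oxidase, fell against TET2M by 1.34 on the log2 scale (adjusted p = 0.0498, limma), and did not pass against Mock (-0.96 ± 0.25). Its values were 8.72 and 9.30 in Mock, 7.26 and 8.84 in TET2WT, and 9.07 and 9.70 in TET2M, with the TET2WT array at high glucose far below the rest. LOX and LOXL1 lay below the low-value level.

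Of the collagen-binding matrix proteins 1 of 11 fell in TET2WT against Mock (beside 2.2% of all genes), with a median of -0.025. Of the receptors 1 of 10 fell (beside the same 2.2%), with a median of 0.065. LUM, a proteoglycan that spaces fibrils, read 4.63 and 4.34 in Mock, 3.74 and 3.11 in TET2WT, and 5.12 and 4.38 in TET2M. The TET2WT arrays were the lowest (-1.06 ± 0.13 against Mock, adjusted p = 0.0137, limma). CSPG4, a melanoma proteoglycan that binds collagens, was lower by -0.77 ± 0.14 (adjusted p = 0.0422, limma). The collagen-binding integrin genes ITGA1 (0.13), ITGA2 (-0.10), ITGA10 (-0.16), ITGA11 (0.10) and ITGB1 (-0.050) and the receptor kinase gene DDR2 (0.18) did not pass.

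Of the collagen-degrading proteases 4 of 10 fell in TET2WT against Mock (beside 2.2% of all genes) and 0 rose (beside 2.01%), with a median of -0.39. MMP9, a gelatinase that also cuts collagen IV, read 5.76 and 5.47 in Mock, 3.31 and 3.11 in TET2WT, and 3.99 and 4.28 in TET2M. The 3 lines did not overlap, with TET2WT lowest and Mock highest. The difference was -2.41 ± 0.15 against Mock (adjusted p = 0.00147, limma) and -0.93 ± 0.15 against TET2M (adjusted p = 0.0380, limma). MMP8, a neutrophil collagenase, was lower by -1.89 ± 0.15 (adjusted p = 0.00414, limma), the membrane-bound MMP16 by -1.15 ± 0.12 (adjusted p = 0.00997, limma) and the interstitial collagenase MMP1 by -1.11 ± 0.18 (adjusted p = 0.0339, limma). MMP1 read 2.16 and 2.81 in TET2WT, so 1 of these arrays lay below the low-value level and the size is uncertain. It did not pass against TET2M (-0.77 ± 0.18), and MMP8 and MMP16 did. MMP14, the membrane collagenase, was at -0.075, and MMP2 at -0.50 ± 0.099 with an adjusted p of 0.0544 in limma. Of the 68 tested genes of these 6 lists 0 passed in limma for glucose (beside 0.00693% of all genes) and 0 between TET2M and Mock (beside 0.097%). An unadjusted p under 0.05 in limma was found for 16 (23.5%, beside 15.4% of all genes) and 5 (7.35%, beside 9.51%).

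**Figure D5:**
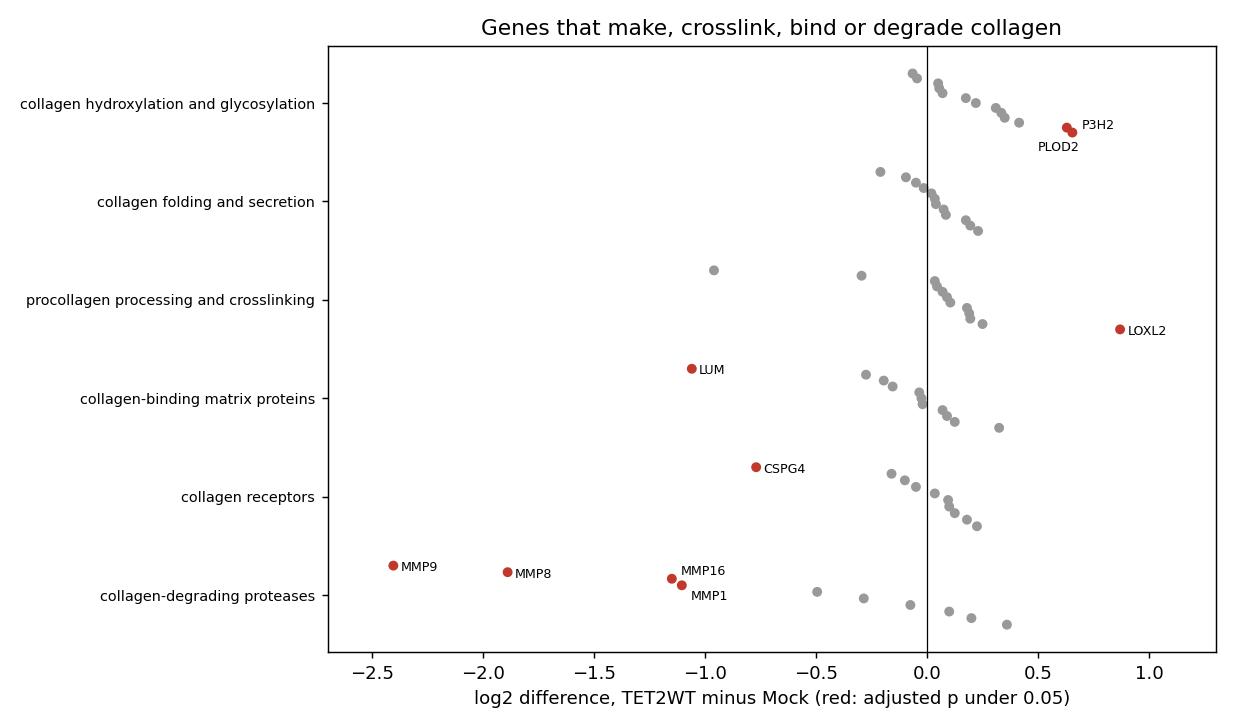
Log2 difference of TET2WT minus Mock (horizontal axis) for the tested genes of the 6 role lists, 1 point per gene, red where the adjusted p was under 0.05. The hydroxylase genes PLOD2 and P3H2 and the crosslinking gene LOXL2 stand to the right, and LUM, CSPG4 and the proteases MMP9, MMP8, MMP16 and MMP1 to the left, down to -2.41.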

How the data were processed

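Per the labels, total RNA of the 6 cultures was hybridised to Affymetrix arrays. The authors deposited log2 probe set values from Affymetrix Expression Console, as the submitters' processing notes say. The program's version and how probes were summarised and background was corrected were not given in the sources used here. Values ran from 1.56 to 13.78, which is why they were read as log2. Sorted columns lay within 0.12 of each other, so the arrays were taken as already normalized together, and no further normalization was applied. Of 41097 single-gene probe sets 41043 had a gene ID found in RefSeq (GRCh38.p14) and took the symbol given there, whether or not it differed. Probe sets of several genes (1801) or none (11777) were left out.

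Differences were fitted with limma 3.58.1 in R 4.3.3 (lmFit and eBayes, terms for line and glucose, 2 residual degrees of freedom, two-sided, Benjamini-Hochberg over 14428 genes), and the scripts were tested on simulated data. An added glucose term for 1 line tested its response. The labels carry no replicate numbers. Named with all array values were the collagen genes that passed, those 1.5-fold apart in every pair of arrays, those with a 2-fold glucose difference in a line and the 5 highest of the rest. For each role list up to 4 passing genes were named; others named were chosen after their values were seen. The collagen genes, the lists and the tests were chosen with earlier results of these data known.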

Additional observations from a re-analysis of the deposited data

How the results depend on the processing

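Depth does not apply to arrays; their number limits the precision. For TET2WT against Mock the count of 7 of 28 collagen genes (beside 4.21% of all genes) stayed within 1.5 times under 6 other settings. It was 7 of 43 with no filter (beside 2.92%), 5 of 18 with the 60th percentile filter (7.24%) and 5 of 23 with the mean of probe sets (4.33%). It was 7 with quantile normalization (4.71%), 7 with cyclic loess (4.8%) and 9 with an intensity trend (10.6%). The genes were not always the same: the mean of probe sets kept 4 of the 7, lost COL11A1, COL6A1 and COL8A1 and gained COL13A1. The count fell to 4 without the glucose term and 0 with 4 arrays. Against TET2M the 7 became 11 with the intensity trend, 4 without the glucose term and 0 with 4 arrays. The calls over all genes moved too: from 608 to 1528, 318 and 16 against Mock and from 476 to 1249, 267 and 0 against TET2M, for the trend, no glucose term and 4 arrays. With an intensity trend TET2M against Mock gave 2 (COL12A1 and COL9A3; 14 to 149 over all genes) and glucose 5 (1 to 573), in place of 0. With any 1 array left out no collagen call remained in the 4 comparisons. There the fit keeps 1 residual degree of freedom, and nearly all calls over all genes were lost too. Over all alternatives the TET2WT difference from Mock ranged from 1.49 to 1.57 for COL6A3, 0.37 to 1.34 for COL6A1 and -0.83 to -0.61 for COL5A2. Of the differences followed through the settings, 0 changed sign. They covered the 7 passing genes, COL9A3, COL12A1, COL16A1, COL26A1 and COL27A1, in comparisons with an unadjusted p under 0.05 in limma. Other named differences, such as those of COL5A1, COL13A1 and the role lists, were not among them. COL5A1 passed against TET2M with quantile normalization, cyclic loess, the 60th percentile filter and the intensity trend. By the 1.5-fold rule the 5 genes against TET2M became 2 with the mean of probe sets. COL11A1 and COL8A1 could not be tested with the 60th percentile filter or the mean of probe sets, where they lay below the low-value level. The labels carry no replicate numbers, so no replicate block was fitted; with the glucose term, lines are already compared within each concentration.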
